A study of Mus musculus with 2 samples.

Results

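Gene desert peaks are the open chromatin regions of mouse hepatic stellate cells that lie far from any protein-coding gene. They were the ATAC-seq peaks listed in replicate A that overlapped a peak of replicate B by at least 1 bp. Their centre had to lie outside every protein-coding gene body of mm10 and more than 50 kb from every protein-coding gene end. This rule took 2538 of the 23452 peaks found in both replicates, or 10.8% (95% Wilson interval 10.4% to 11.2%). Position alone chose them, and no measured value entered beyond the presence of a peak in both lists. ATAC-seq marks accessible DNA by the insertion of sequencing adapters with Tn5 transposase. The nuclei came from healthy, chow-fed mice of strain C57BL6/JBomTac that carried Gt(ROSA)26Sortm1(mCherry-Rpl10a-Flop)Kra and Tg(Lrat-cre)1Rshw (B6.Cg), and were sorted on mCherry-RPL10A, which is switched on in cells where the Lrat promoter has driven Cre. Both samples, replicates A and B, belong to 1 control group, so no condition was compared with another.

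Distal open regions can be enhancers, stretches of DNA where transcription factors bind and act on a promoter at a distance along the chromosome. Gene deserts are long intervals without protein-coding genes. Many flank genes of transcription factors and signalling molecules and hold enhancers of those genes, and they also hold promoters of long noncoding RNAs (lncRNAs). Hepatic stellate cells wrap the sinusoidal capillaries of the liver, store vitamin A and are the main source of scar matrix in injured liver.

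Several limits of the lists touch every value that follows. In B, individual peaks carry names that start with a word for oil, whereas the label says control and chow, so a difference in treatment between A and B cannot be told apart from the spread between replicates. The labels leave unsaid whether the replicates came from separate animals. The lists hold no read counts, so the depth of each library is unknown, and intervals cover counting error only. The list of A had 36577 entries and that of B 28794. A replicated peak lay within 1 kb of an end of 8 of 8 stellate cell marker genes, of 1 of 5 hepatocyte genes (Cyp2e1), of 1 of 4 sinusoidal endothelial genes (Kdr), and of none of 4 Kupffer cell and 4 cholangiocyte genes. The share over all 21887 protein-coding genes was 41.3%.

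Some gene desert peaks cover the start of a lncRNA gene, and the promoter windows of 6 such genes are shown because they give the letters around those starts. The peaks cover 153 to 260 of the 300 bases of a window, so a marked match can lie outside the peak. Each runs from 250 bases before to 50 bases after the annotated start, in the direction of the gene, from RefSeq (GRCm38.p6, the assembly of mm10). The first 5 belong to the strongest peaks at noncoding RNA gene ends, and Firre was added after its values were seen. Gm26901 is at chr1:7398047-7398346 (minus strand), D130051D11Rik at chr15:85634346-85634645 (plus), Gm4258 at chr1:137898272-137898571 (plus), BC002059 at chr17:16951286-16951585 (plus), Jpx at chrX:103493308-103493607 (plus) and Firre at chrX:50635272-50635571 (minus). Capitals mark matches, on either strand, to the motif letters spelled out with the lncRNA results.
Gm26901: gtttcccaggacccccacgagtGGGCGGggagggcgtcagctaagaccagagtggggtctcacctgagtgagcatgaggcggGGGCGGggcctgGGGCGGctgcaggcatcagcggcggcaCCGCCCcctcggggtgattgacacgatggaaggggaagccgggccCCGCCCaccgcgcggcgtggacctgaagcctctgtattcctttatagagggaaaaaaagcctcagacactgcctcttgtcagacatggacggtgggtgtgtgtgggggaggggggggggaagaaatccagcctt
D130051D11Rik: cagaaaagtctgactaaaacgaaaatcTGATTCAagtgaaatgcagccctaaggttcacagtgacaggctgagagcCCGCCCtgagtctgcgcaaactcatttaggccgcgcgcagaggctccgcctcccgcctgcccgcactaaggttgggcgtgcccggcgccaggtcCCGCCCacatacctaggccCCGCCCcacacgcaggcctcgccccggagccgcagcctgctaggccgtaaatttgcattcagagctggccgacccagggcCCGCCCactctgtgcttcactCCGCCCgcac
Gm4258: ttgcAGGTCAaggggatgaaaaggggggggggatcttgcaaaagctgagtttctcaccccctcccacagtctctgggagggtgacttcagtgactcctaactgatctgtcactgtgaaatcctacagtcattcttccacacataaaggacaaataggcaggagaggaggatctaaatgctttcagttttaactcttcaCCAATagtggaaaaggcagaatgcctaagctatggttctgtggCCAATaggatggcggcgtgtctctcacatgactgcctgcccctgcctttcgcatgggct
BC002059: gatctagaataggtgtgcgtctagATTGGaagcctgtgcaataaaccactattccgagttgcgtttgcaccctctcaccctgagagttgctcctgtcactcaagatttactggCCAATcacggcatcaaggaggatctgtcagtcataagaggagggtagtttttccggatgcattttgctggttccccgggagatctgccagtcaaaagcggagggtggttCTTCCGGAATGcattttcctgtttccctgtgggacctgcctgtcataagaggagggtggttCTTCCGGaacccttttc
Jpx: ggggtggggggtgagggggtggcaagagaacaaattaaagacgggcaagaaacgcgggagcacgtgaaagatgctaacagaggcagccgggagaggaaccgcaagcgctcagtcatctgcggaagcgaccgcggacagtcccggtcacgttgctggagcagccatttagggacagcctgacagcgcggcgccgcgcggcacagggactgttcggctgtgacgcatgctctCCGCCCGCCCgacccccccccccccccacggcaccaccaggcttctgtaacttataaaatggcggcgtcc
Firre: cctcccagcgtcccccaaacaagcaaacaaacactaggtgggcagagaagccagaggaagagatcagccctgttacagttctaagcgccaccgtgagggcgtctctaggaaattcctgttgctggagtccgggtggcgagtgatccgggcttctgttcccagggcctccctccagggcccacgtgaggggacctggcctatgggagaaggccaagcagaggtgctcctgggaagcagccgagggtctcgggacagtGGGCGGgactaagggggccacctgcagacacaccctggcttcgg

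The Gm26901 window held 5 GC-box matches (GGGCGG), and the D130051D11Rik window held 5 and 1 AP-1 match. The first GC box printed for Gm26901 and the AP-1 match lie outside the peaks. The BC002059 window held 2 ETS matches, and the Gm4258 window held neither of these kinds. At the Gm26901 start the peak (chr1:7397858-7398270) reached a fold enrichment of 19.8 in replicate A and 18.8 in replicate B, and that at D130051D11Rik (chr15:85634392-85634905) 19.7 in A and 17.9 in B. Fold enrichment is the authors' own value for a peak over the local background of their caller, and it serves here only to describe and rank peaks. The peak at BC002059 had 16.2 in A and 16.5 in B, and that at Gm4258 19.7 in A and 16.4 in B. The peak at Jpx, a lncRNA gene of the X-inactivation centre that is known to activate Xist in mouse, had 15.7 in A and 16.0 in B. All 5 peaks were above the medians of the gene desert peaks, which follows from their choice by mean rank over A and B.

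Gene desert regions were found again in the other replicate far less often than regions at gene ends. Of 4530 entries of A in gene deserts, B also held 56.0% (54.6% to 57.5%), against a background of 64.1% over all entries of A. The share was 54.6% for intergenic entries within 50 kb of a gene, 57.4% in gene bodies and 83.9% within 1 kb of gene ends. The difference from intergenic entries within 50 kb was 1.47 percentage points (Newcombe 95% interval -0.362 to 3.31) and that from gene bodies -1.34 points (-2.997 to 0.318), and both intervals include 0. The difference from gene ends was -27.8 points (-29.4 to -26.2). From the side of B, 74.3% (72.8% to 75.7%) of 3425 gene desert entries were also in A, against 79.7% (78.5% to 80.7%) within 50 kb, 77.2% (76.4% to 77.99%) in gene bodies, 90.5% at gene ends and 81.7% over all entries of B. On this side the interval for gene deserts lies below those of every other class. In all, 1992 desert entries of A and 880 of B had no partner in the other list. The share followed peak strength: in the lowest of 10 classes of −log10 q of A it was 31.2% for gene deserts and 44.3% for gene ends, and in the highest 97.9% and 99.96%. With the classes of strength weighted alike, the shares were 62.7% for gene deserts, 59.0% within 50 kb, 62.5% in gene bodies and 73.8% at gene ends. Weighted in this way, the gap to gene ends was smaller but still there.

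**Figure D1:**
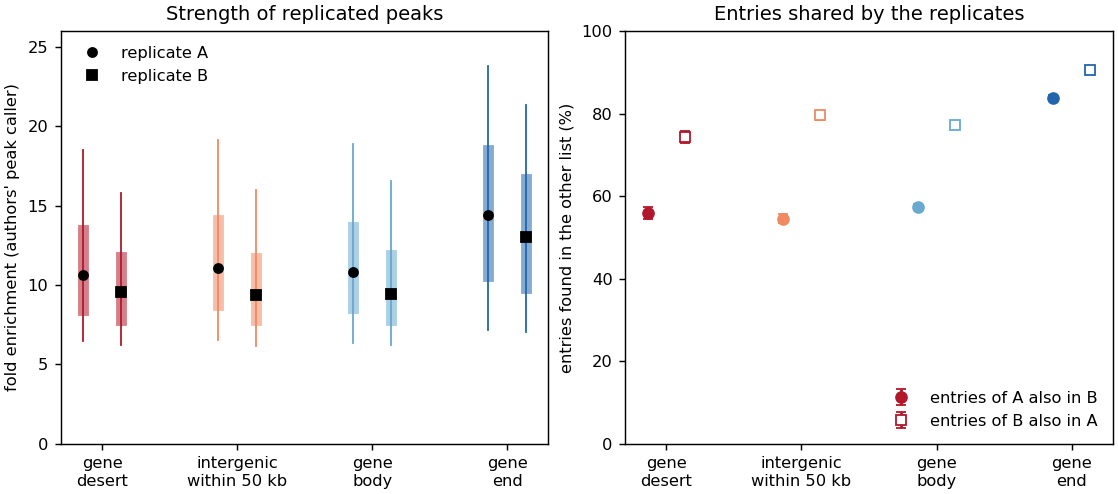
Left, fold enrichment of replicated peaks by position class; points are medians, boxes quartiles and lines the 5th to 95th percentile, with replicate A left of replicate B. Right, percent of entries of a list that the other list also holds, with 95% Wilson intervals; gene deserts, at 56.0% of A and 74.3% of B, lie near the intergenic and gene body classes in A, below them in B, and below gene ends at 83.9% and 90.5%.

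The gene desert peaks were close to other distal peaks in strength and width, and weaker than gene end peaks. Their median fold enrichment was 10.6 in A (quartiles 8.45 to 13.5) and 9.55 in B (7.78 to 11.8). Peaks within 50 kb of a gene had medians of 11.1 in A and 9.35 in B, those in gene bodies 10.8 and 9.44, and those at gene ends 14.4 and 13.0. The median width was 263 bp in gene deserts, 260 bp within 50 kb, 256 bp in gene bodies and 283 bp at gene ends. In all, 130 gene desert peaks (5.12%) were 500 bp wide or more, against 4.73% of all replicated peaks. The summits called in A and B lay a median of 30 bp apart in gene deserts, against 26 bp, 27 bp and 21 bp in the other classes. They lay within 50 bp of each other in 68.1% of gene desert peaks and in 81.1% of gene end peaks.

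Peak strength in A and B was related but loosely so. Across the 2538 gene desert peaks, Spearman's rho between the fold enrichment in A and in B was 0.524 and Pearson's r on the log2 scale was 0.561. Across gene end peaks rho was 0.757. These are correlations across peaks of the same pair of libraries, and peaks are not independent replicates. Fold enrichment was lower in B in 1627 gene desert peaks, or 64.1%, against a background of 66.3% over all replicated peaks. The median difference, B over A, was -0.14 on the log2 scale. Fold enrichments more than 2 times apart were seen in 67 gene desert peaks (2.64%), against 2.25% of the other replicated peaks.

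**Figure D2:**
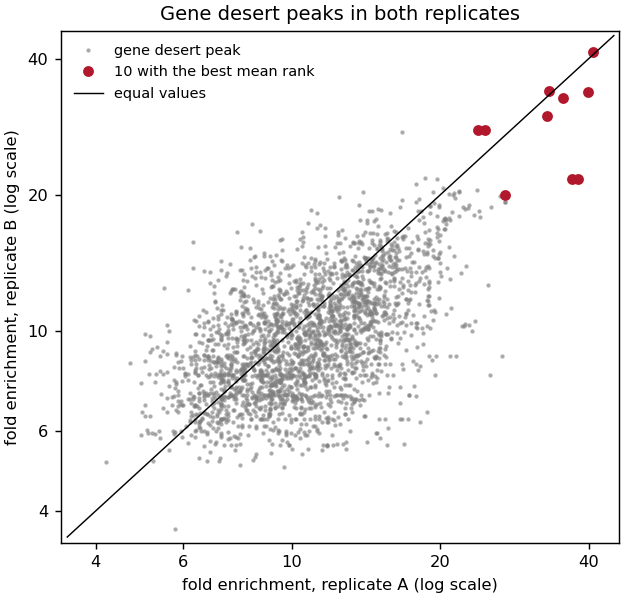
Fold enrichment of each gene desert peak in replicate A (horizontal, log scale) and in replicate B (vertical, log scale), with the line of equal values. The 10 peaks with the best mean rank (large points) reach 40.8 in A and 41.5 in B, and most others lie between 6 and 20.

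The 10 strongest gene desert peaks were chosen by mean rank of fold enrichment, and so lay above the 95th percentile by that choice. That percentile was 18.5 in A and 15.8 in B. The first by mean rank, at chr12:3109817-3109920, was 104 bp wide and had 40.8 in A and 41.5 in B, 138 kb from Rab10, a gene of a vesicle transport GTPase. The next, at chr5:60042810-60043105 between Pcdh7 and G6pd2, had 39.9 in A and 33.8 in B. It was also the gene desert peak farthest from a protein-coding gene, at 1766 kb. The peak at chr12:97061382-97061834, between Flrt2 and Galc, had 33.2 in A and 34.0 in B, and its −log10 q of 298 in A and 287 in B was the highest of all replicated peaks in both lists. The peaks at chr6:9889885-9890213 (Nxph1 to Ndufa4) and chr2:57629445-57629779 (Gpd2 to Galnt5) had 35.5 and 32.9 in A, and 32.8 and 29.9 in B. The replicates were farther apart at chr14:104715746-104716106 (Obi1 to Rbm26), with 37.0 in A and 21.7 in B, and at chr18:68692231-68692367 (Mc2r to Tcf4), with 38.03 in A and 21.7 in B. The other 3 of the 10, nearest to Vmn2r87, Kcnh8 and Pex2, had 23.8 to 27.0 in A and at most 27.9 in B. Over 25 were 15 peaks in A, 8 in B and 5 in both. None of the 10 lay within 1 kb of a noncoding RNA gene end. Whether artefact-prone regions were filtered before deposit is not given in the sources used.

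The next peaks in order of distance were of ordinary strength. At chr2:47088662-47088883, between Zeb2 and Acvr2a and 1725 kb from the nearer, the fold enrichment was 9.46 in A and 10.2 in B. At chr1:114092422-114092642, between Dsel and Cntnap5a and 1592 kb away, it was 10.3 in A and 8.80 in B.

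Gene desert peaks became sparser with distance from genes while their strength stayed level. The median distance to the nearest protein-coding gene end was 122 kb (quartiles 78.4 and 224 kb). Between 50 and 100 kb lay 991 peaks, or 4.45 per Mb of desert. The density was 3.12 per Mb from 100 to 250 kb, 1.70 from 250 to 500 kb, 0.768 from 500 kb to 1 Mb and 0.351 beyond, where only 26 peaks lay. The median fold enrichment in A was 10.7, 10.5, 10.6, 10.8 and 10.3 in these bins, and in B 9.38, 9.54, 9.60, 10.2 and 9.98. The share of desert entries of A found in B was 55.6%, 55.5%, 56.6%, 61.5% and 59.1%, with overlapping intervals. Over all desert bases (1006 Mb) the density was 2.51 per Mb, against 6.57 per Mb of intergenic DNA within 50 kb and beyond 1 kb of genes. With the peaks at gene ends counted, intergenic DNA within 50 kb held 13.8 per Mb and gene bodies 11.5 per Mb. The limit of 50 kb cut through a continuum: 276 peaks from 50 to 60 kb had medians of 10.7 in A and 9.37 in B, and 388 peaks from 40 to 50 kb had 10.3 and 9.02. On the autosomes alone the density was 2.85 per Mb and fell in the same order, to 0.352 beyond 1 Mb. How much of each bin short reads can be placed in was not tested.

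**Figure D3:**
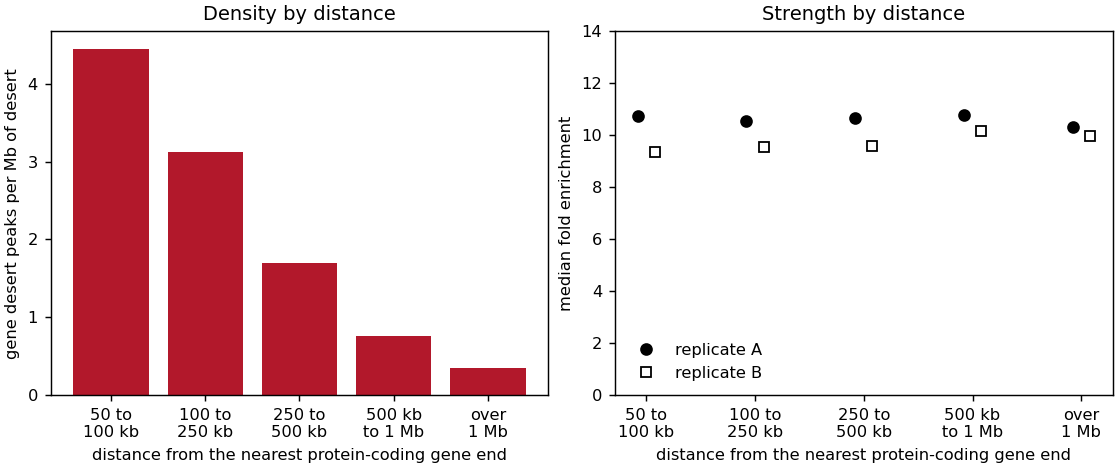
Left, gene desert peaks per Mb of desert in 5 bins of distance from the nearest protein-coding gene end; the density falls from 4.45 at 50 to 100 kb to 0.351 beyond 1 Mb. Right, their median fold enrichment in replicates A and B, which stays between 9.38 and 10.8 in every bin.

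Many of the peaks lay in few deserts, but deserts differ widely in length. Of 2967 intervals between neighbouring protein-coding genes that hold desert bases, 870 (29.3%) held at least 1 gene desert peak. The 170 fullest, 5.73% of the intervals, held 50% of the peaks that lie between genes. Desert bases per interval had a median of 0.133 Mb and a maximum of 4.44 Mb, so counts per interval depend on length too. The share of desert bases in these 170 intervals was not computed. Of the intervals, 360 held 1 peak, 173 held 2, 223 held 3 to 5, 80 held 6 to 9 and 34 held 10 or more. A further 12 peaks lay between a chromosome end and the first or last gene. Within 20 kb of another gene desert peak lay 1141 peaks, or 44.96%. Within their own classes the share was 48.0% for peaks within 50 kb of a gene, 51.4% in gene bodies and 35.9% at gene ends. These shares were not adjusted for density, which was 2.51 per Mb in deserts and 6.57 within 50 kb and beyond 1 kb of genes.

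**Figure D4:**
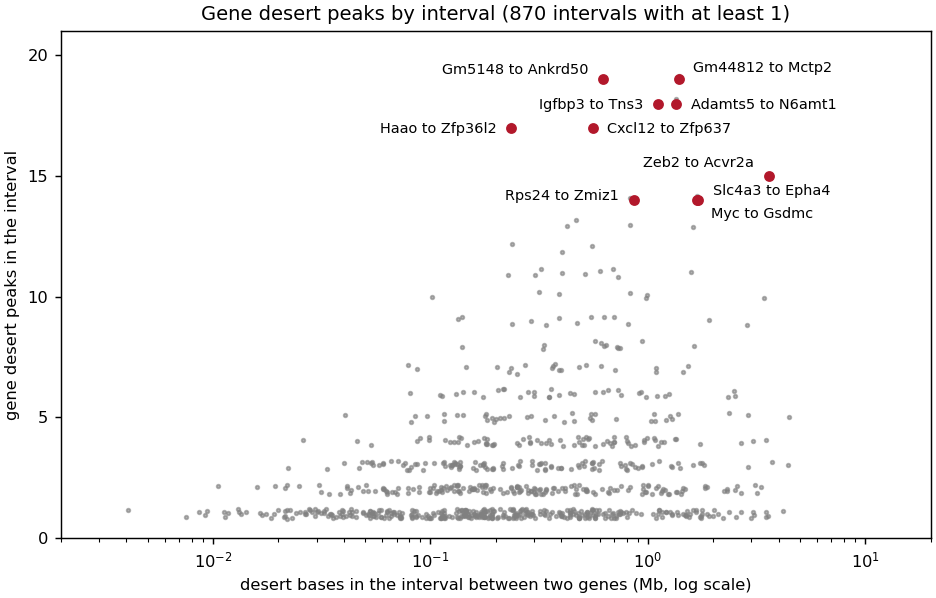
Number of gene desert peaks in each of the 870 intervals that hold any (vertical, points spread slightly to show overlaps), by desert bases in the interval in Mb (horizontal, log scale). The 10 fullest intervals (large points, named by their flanking genes) hold 14 to 19 peaks in 0.235 to 3.597 Mb.

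The 10 fullest intervals held 14 to 19 peaks each. On chromosome 7, 19 peaks lay between Gm44812 and Mctp2, with 5.04 to 18.5 in A and 6.41 to 17.8 in B. Nr2f2, which encodes the nuclear receptor COUP-TFII of mesenchymal and venous cells, is the next gene beyond Gm44812, 218 kb from the interval, and was chosen, like Spry1, after values were seen. On chromosome 3, 19 peaks lay between Gm5148 and Ankrd50 (4.95 to 18.8 in A and 6.23 to 15.6 in B), 30.4 per Mb. Spry1, an inhibitor of receptor tyrosine kinase signalling, lies beyond Gm5148, 79.8 kb from the interval. On chromosome 16, 18 peaks lay between Adamts5, a protease gene that cleaves matrix proteoglycans, and N6amt1. Their fold enrichment was 6.69 to 16.7 in A and 6.40 to 15.3 in B. On chromosome 11, 18 peaks lay between Igfbp3, a binding protein of insulin-like growth factors, and Tns3, a focal adhesion protein. The strongest of them, at chr11:8063172-8063460, had 20.2 in A and 20.7 in B. The Zeb2 to Acvr2a, Slc4a3 to Epha4, Myc to Gsdmc and Rps24 to Zmiz1 intervals held 15, 14, 14 and 14 peaks. Of the genes named here, Spry1, Ankrd50, N6amt1, Acvr2a, Slc4a3, Epha4 and Rps24 had a replicated peak within 1 kb of an end. Nr2f2, Gm44812, Mctp2, Gm5148, Adamts5, Igfbp3, Tns3, Zeb2, Myc, Gsdmc and Zmiz1 had none.

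Between Cxcl12, the chemokine by which stromal cells retain CXCR4-bearing cells, and Zfp637 on chromosome 6 lay 17 peaks, 30.4 per Mb. The 8 nearer to Cxcl12 lay 61.1 to 328 kb from it. The nearest of these had 10.4 in A and 8.28 in B, and the strongest in A, at chr6:117271553-117271836, had 15.3 in A and 8.82 in B. The strongest in B, at chr6:117678326-117678611 on the Zfp637 side, had 14.1 in A and 14.4 in B. Cxcl12 and Zfp637 both had a replicated peak within 1 kb of an end. The rule left out any peak within 50 kb of either gene. The peaks that remained lay between points 61.1 kb from Cxcl12 and 81.3 kb from Zfp637.

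The densest of the 10 was the interval between Haao, an enzyme gene of tryptophan breakdown, and Zfp36l2, whose protein speeds the decay of AU-rich mRNAs. Its 17 peaks in 0.235 Mb of desert, 72.4 per Mb, all lay within 20 kb of another. They had 5.46 to 18.3 in A and 5.83 to 13.6 in B. The strongest in A, at chr17:84028589-84028816 and 155 kb from Zfp36l2, had 18.3 in A and 10.2 in B. The strongest in B, at chr17:83990370-83990762 on the Haao side, had 15.3 in A and 13.6 in B. A replicated peak lay within 1 kb of an end of Zfp36l2 and not of Haao. In the Myc interval, 10 of 14 peaks were nearer to Myc, the growth regulator, at 53.4 to 338 kb, and 6 lay in the lncRNA gene Pvt1 next to it. These 10 had 8.27 to 14.4 in A and 7.38 to 12.3 in B.

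Runs, in which each peak lies within 20 kb of the next, reached 9 peaks. Of all runs, 1397 were single peaks, 299 held 2, 98 held 3 and 50 held 4 or more. On chromosome 13, 9 peaks filled chr13:51272788-51328635, inside the lncRNA gene Gm46414 and between Nxnl2 and S1pr3, a receptor gene for sphingosine-1-phosphate. Their fold enrichment was 9.12 to 17.4 in A and 7.59 to 17.0 in B, with medians of 12.8 and 9.98. All 9 were thus at or above the lower quartile of gene desert peaks in A. In B the weakest, with 7.59, was below the lower quartile of 7.78. A run of 9 at chr4:150730245-150800173, between Slc45a1 and Errfi1, a feedback inhibitor of EGF receptor signalling, had medians of 10.2 in A and 8.54 in B. The Haao to Zfp36l2 interval held runs of 9 and 8.

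Firre, a lncRNA gene on the X chromosome whose RNA is known to bind chromatin at several loci, was marked by many weak peaks and a stronger one at its start. Its body held 8 gene desert peaks, with 5.42 to 10.5 in A and 6.02 to 7.32 in B. In B, all 8 were below the lower quartile of gene desert peaks. In A the strongest, with 10.5, was above the lower quartile of 8.45, and the others were below it. The peak at its start (chrX:50635311-50635570), whose promoter window is printed above, had 17.8 in A and 12.7 in B.

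Genes that flank a desert with peaks had an open end more often than genes that flank an empty one. Of genes beside deserts with no gene desert peak, 30.2% (28.7% to 31.7%) had a replicated peak within 1 kb of an end. The share was 44.1% (41.1% to 47.2%) beside deserts with 1 or 2 peaks and 51.7% (47.9% to 55.5%) beside those with 3 or more, against the 41.3% of all protein-coding genes. The order held when intervals were divided by length into 3 groups of equal number. In the shortest the shares were 33.4%, 57.5% and 67.6%, in the middle 26.0%, 43.4% and 54.8%, and in the longest 24.1%, 37.1% and 48.4%. Only 34 genes stand behind the 67.6%. Neighbouring genes and the peaks beside them share a library and a region, and their local mappability was not tested.

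Most gene desert peaks lay more than 1 kb from the ends of annotated noncoding RNA genes. Within 1 kb of a noncoding RNA gene end lay 182 (7.17%; 6.23% to 8.24%), 173 of them lncRNA ends, and 590 (23.2%) lay in a lncRNA gene body, which covers 10.1% of desert bases. The share of desert bases within 1 kb of such ends was not computed, so 7.17% cannot be called high or low for those bases. The peaks at noncoding RNA ends had medians of 10.7 in A and 9.67 in B, close to the 10.7 and 9.56 of the 1868 peaks outside lncRNA bodies and away from such ends. Of the desert entries of A, B held 61.1% (55.4% to 66.4%) at noncoding RNA ends and 55.7% (54.2% to 57.2%) elsewhere, so the intervals overlap. A gene desert peak overlapped 71 of 3379 lncRNA promoter windows in deserts, or 2.10%, against 27.3% of all promoter windows with a replicated peak. The share was 11.7% for lncRNA windows outside deserts and 37.4% for protein-coding ones. The strongest peaks at noncoding RNA ends beside those with printed windows were at Gm14419 (19.8 in A and 19.0 in B), Gm31803 (17.3 and 15.3), Gm39607 (15.8 and 14.6), Gm41307 (20 and 13.5) and 4930445N18Rik (19.8 and 15.8). At Mir100hg, the host gene of miRNAs that include Mir100, chosen after its values were seen, a start peak had 14.4 in A and 12.8 in B.

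The promoter windows overlapped by gene desert peaks were richer in GC than other desert lncRNA windows. The median GC content was 51.0% in the 71 windows with a peak and 45.3% in the 3308 without, and 62.3% in protein-coding windows with a peak. The median ratio of observed to expected CpG was 0.348, 0.199 and 0.810 in these sets. The GC-box letters of SP and KLF factors (GGGCGG) were in 25.4% (16.7% to 36.6%) of windows with a peak and in 6.47% (5.68% to 7.36%) without, and in 35.7% of all 32851 promoter windows. The ETS letters (CCGGAAG) were in 11.3% (5.82% to 20.7%) with a peak and 2.03% (1.60% to 2.56%) without, and in 8.86% of all. The intervals of the other motifs overlapped between windows with and without a peak. AP-1 letters (TGANTCA) were in 11.3% with a peak and 11.2% without, and in 7.81% of all windows. GATA letters (AGATAA) were in 15.5% and 18.1%, and in 11.2% of all. TEAD letters (GGAATG) were in 15.5% and 17.4%, and in 14.7% of all. The nuclear receptor element AGGTCA was in 23.9% and 19.2%, and in 16.3% of all, and the NF-Y letters (CCAAT) in 31.0% and 39.0%, and in 37.4% of all. The palindromic NFI consensus was in 0 of 71, which allows a share of up to 4.23% by a limit of 3 counts (5.13% by the Wilson interval), and in 0.0605% of those without a peak and 0.0365% of all. Both strands were searched, no motif holds the fixed letters of another, and windows of 300 bp that belong to 1 gene can share bases: the 71 windows belong to 64 genes. A match is a run of letters and not a bound site.

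Gene desert peaks outnumbered the mean density beside 5 of 8 gene lists, those of early response, stellate identity and matrix, growth factors, stellate and mesenchymal transcription factors, and endothelial, macrophage and lymphocyte genes. They were fewer beside synaptic genes, developmental transcription factors of other lineages and hepatocyte genes. The nearest protein-coding gene describes a position and not a target, and the lists were chosen with earlier results of these data known. For each of 8 gene lists, the peaks nearest to its genes were set against the number that the same desert bases would hold at the mean density for their distance. The mean was taken over the desert bases of all 4744 protein-coding genes beside a desert, of which 1129 were nearest to a gene desert peak. Of genes beside a desert, 8 of 14 early response and 11 of 23 stellate identity and matrix genes were nearest to a peak. So were 16 of 37 growth factor genes, 24 of 36 stellate and mesenchymal transcription factors and 4 of 13 endothelial, macrophage and lymphocyte genes. For the other lists it was 10 of 56 synaptic, 16 of 50 developmental and 3 of 6 hepatocyte genes. Beside AP-1 and other early response genes lay 32 peaks, against 7.31 at the mean density, a ratio of 4.38. Of these, 10 were nearest to Myc, 8 to Zfp36l2, 3 to Zfp36l1 and 3 to Cebpb, a leucine zipper factor of inflammation and metabolism. None of these genes encodes an AP-1 subunit. Beside stellate identity and matrix genes lay 29, against 11.8 (2.45): 6 each at Adamts5 and at Dcn, which encodes the collagen-binding proteoglycan decorin, 5 at Tnc (tenascin C) and 3 at Lamb1 (a laminin chain). The 6 beside Dcn had 5.15 to 14.9 in A and 8.04 to 15.3 in B, 70.1 to 166 kb from the gene.

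Growth factors, morphogens and their antagonists had 57 peaks, against 25.3 (2.26). Cxcl12 had 11, Inhba 8, Gdf6 6 and Bmp2 5. Inhba encodes a subunit of activin, and Gdf6 and Bmp2 encode bone morphogenetic proteins. The 8 beside Inhba lay 93.5 to 348 kb away, with 5.87 to 18.8 in A and 6.77 to 17.6 in B. Neither Inhba nor Gdf6 had a replicated peak at its ends, whereas Cxcl12 and Bmp2 did. Stellate and mesenchymal transcription factors had 77 peaks, against 36.1 (2.13). Ets1 had 8, and Hand2 and Tbx20 had 5 each. Hand2, a basic helix-loop-helix factor of stellate and cardiac mesenchyme, had an open end. Its 5 peaks lay 107 to 307 kb away, with 7.52 to 17.3 in A and 6.74 to 10.6 in B. The 8 beside Ets1 had 6.59 to 12.2 in A and 6.37 to 12.7 in B, and Ets1 had no replicated peak at its ends.

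Of the other 4 lists, 3 had ratios below 1. Synaptic and neural adhesion genes, which flank 7.14% of desert bases, had 32 peaks, against 108 (0.297). Of these, 11 were nearest to Cdh2, which encodes N-cadherin and is also expressed by mesenchymal cells, 5 each to Epha7 and Pcdh18 and 3 to Sema3d. The 11 beside Cdh2 had 6.37 to 14.2 in A and 6.37 to 17.3 in B. Developmental transcription factors of other lineages had 38, against 49.95 (0.761), with 6 at Lmo4, 5 at Sox6 and 4 each at Id2 and Bcl11b. Hepatocyte genes had 3, against 6.08 (0.494), 1 each at Apob, Foxa2 and Arg1 and none at Cps1. These 3 had 5.04 to 8.83 in A, all below the median of gene desert peaks, and 6.47 to 10.5 in B. In B the peak nearest to Apob, with 10.5, was above the median of 9.55, and the others were below it. Endothelial, macrophage and lymphocyte genes had 15, against 7.58 (1.98), a ratio close to that of the stellate and mesenchymal transcription factors. With entries above the median −log10 q alone the ratios were 2.59 for this list and 1.86 for those factors. Of the 15 peaks, 7 were nearest to Irf8, a factor of myeloid cells, 5 to Cdh5 (VE-cadherin), 2 to Ptprc and 1 to Bach2. The 7 beside Irf8 had 5.71 to 22.4 in A and 6.32 to 12.4 in B. Irf8 had a replicated peak at its end, whereas Cdh5, Ptprc and Bach2 had none. Genes of a list differ in how many peaks they bring, so a ratio can rest on 1 or 2 loci. On the autosomes alone the ratios were 3.77, 2.11, 1.93, 1.84, 0.270, 0.666, 0.426 and 1.71 in the order given. No ratio crossed 1. The part that RNA or nuclei of other cell types have in the peaks beside their genes was not tested.

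**Figure D5:**
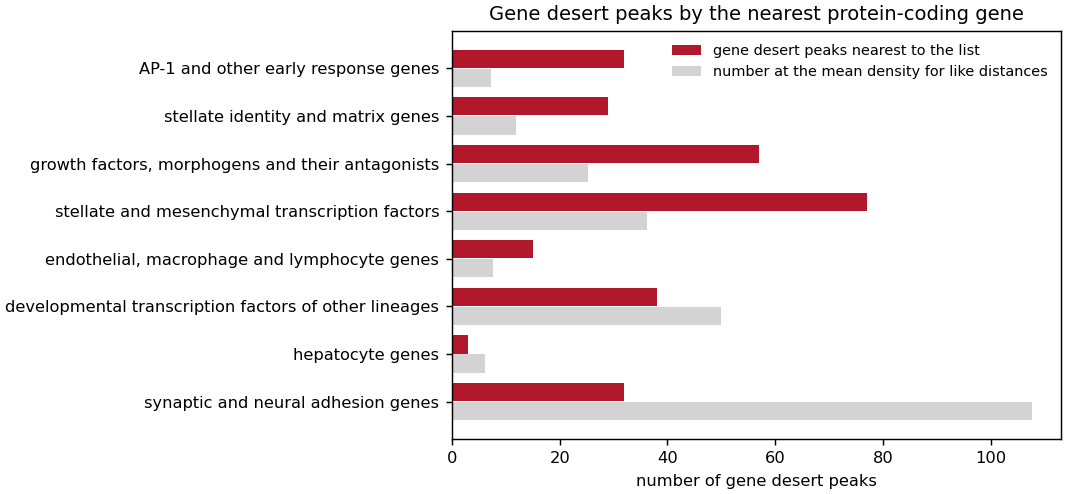
Gene desert peaks whose nearest protein-coding gene is in each of 8 lists (upper bar), and the number that the same desert bases would hold at the mean density for like distances (lower bar). The early response list has 32 against 7.31, and the synaptic list 32 against 108.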

How the data were processed

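ATAC-seq peak lists of 2 samples (A and B, 1 group) were used. The authors deposited, for each peak, a fold enrichment (a ratio over local background), a −log10 p, a −log10 q and a score, with a summit offset. Per the submitters' processing notes, the build was mm10 and the tools were HOMER, MACS2, bedtools, Picard, SAMtools and STAR 2.7.0, without stated roles. Each list was deposited for a single sample. A shift of reads for the Tn5 offset is not stated in the sources used here. Some called peaks were deposited in pieces, which gave 5 gene desert peaks. In 6 the summit lay outside the interval, and 21 overlapped more than 1 entry of B.

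Python 3.11.15, numpy 2.4.6, pandas 2.3.3, statsmodels 0.14.6 and matplotlib 3.10.9 were used. Coordinates are 1-based and those of A. Genes came from a RefSeq table of GRCm38.p6 with 21887 protein-coding genes. Desert bases are those of intervals between neighbouring protein-coding genes without 50 kb at each side. Shares have 95% Wilson intervals. No p-value was made, since peaks are not replicates. The members and lists were chosen with earlier results of these data known. Of 44 stellate identity and matrix genes 43 matched the table, and in the other 7 lists every gene matched.

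Peaks named are the 10 of best mean rank by fold enrichment over A and B, the 3 farthest and 10 at noncoding RNA gene ends. Genes named flank the 10 fullest intervals or have the most peaks in a list, up to 4 each, and 1 of them is not reported here. Neighbours beyond those flanks, runs, lncRNA bodies, Firre and Mir100hg were chosen after values were seen. No genome was used here, so motifs were searched in RefSeq promoter windows and not in all peaks. That step, the list ratios under other settings and the autosomes alone were added after the data were seen. Alternatives changed the overlap, peak strength, centre, pieces, gene set, distance limit, coordinates and replicates. Functions were tested on simulated data.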

Additional observations from a re-analysis of the deposited data

How the results depend on the processing

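Peak strength, the gene set and the requirement of both replicates moved the counts and densities, the distance limit moved counts and shares, and the depth behind the lists is unknown. Only entries above the median −log10 q gave 912 gene desert peaks, 7.72% of replicated peaks, 52.2% of desert entries of A found in B, a median width of 323.5 bp, 0.900 per Mb, 8.33% at noncoding RNA ends, 22.0% within 20 kb of another, and median fold enrichments of 13.7 in A and 12.3 in B. The 10000 strongest entries of each list gave 399 peaks, 5.55%, 360 bp, 0.392 per Mb, 9.27% within 20 kb, and 15.7 in A and 14.01 in B. With all annotated genes ending a desert there were 598 peaks, 2.55%, 1.24 per Mb, 37.1% within 20 kb and, by construction, 0% at noncoding RNA ends. Limits of 25 and 100 kb gave shares of 15.8% and 6.60%, noncoding RNA end shares of 8.63% and 4.98%, and 47.8% and 40.3% within 20 kb, and the counts were 3708 and 1547. The densities were 3.08 and 1.97 per Mb. They counted as unmoved under a wide limit of 0.780, the standard deviation between the densities without A and without B. An overlap of at least 50% of both entries gave 51.2% of desert entries of A in B, and weighting by strength 62.7%. With coordinates of B the width was 235 bp, and the share became another quantity, the 74.3% of desert entries of B found in A.

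Without replicate A or without replicate B, 3425 to 4530 desert entries were left, 11.9% to 12.4% of entries. Their median width was 217 to 224 bp and their density 3.38 to 4.49 per Mb. The share within 20 kb was 50.6% to 59.0% and that at noncoding RNA ends 6.58% to 6.66%. The median fold enrichment was 9.25 in A alone and 8.75 in B alone. The other recomputed values stayed within the limit set for their kind of result, and the 80 ratios of gene lists recomputed stayed on the same side of 1. No paired analysis was possible because both samples belong to 1 group.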

Other observations

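Gene desert peaks were spread unevenly over chromosomes. Per Mb of desert they were densest on chromosomes 13 (4.08), 2 (3.96) and 10 (3.90) and sparsest among autosomes on chromosome 19 (1.89). The X chromosome held 64, or 0.808 per Mb, and the Y chromosome 2 in 65.2 Mb of desert. These 2 chromosomes hold deserts but few replicated peaks, and how well reads can be placed on them was not tested.

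Immunoglobulin variable segments are not counted as protein-coding genes in the gene table, so peaks among them fall into gene deserts by the rule. A pair of gene desert peaks lay within 20 kb of such a segment, both in the kappa light chain locus. At chr6:69516343-69516583, 7276 bp from Igkv13-57-2, the fold enrichment was 26.4 in A and 19.9 in B. At chr6:70314676-70314950, 82 bp from Igkv8-21, it was 12.8 in A and 10.3 in B. A further 36 gene desert peaks lay within 1 kb of a pseudogene end. These were chosen after their values were seen.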
